A study of Homo sapiens with 17 samples.

Results

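By RNA-seq, 3 clones of the lymphoma line WSU-DLCL2 labelled as BCL11A knockouts were compared with 3 libraries of the unedited line. The comparison holds 6 of the 15 libraries of the series, taken by the sample titles, and every library of either group was used. WSU-DLCL2 is an established human cell line derived from diffuse large B cell lymphoma, a tumour of mature B cells. By title and source name the parental cultures are untreated, and the deposited files name them for DMSO, the solvent in which compounds are given. For untreated replicate 3 the treatment entry instead says A-485 for 48 h, a conflict described below. The rest of the series concerns A-485, an inhibitor of the histone acetyltransferases p300 and CBP, in this line and in Karpas-422. Each knockout library came from a clone of its own. The samples hold no unedited clone, and an effect of picking single cells cannot be told apart from an effect of the edit. The sources used here do not say by what means the gene was disrupted. No label says that the untreated libraries came from separate cultures, so p-values rest on the spread among libraries, and that spread may be technical.

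BCL11A is a zinc-finger transcription factor of lymphoid and erythroid cells that recruits corepressor complexes such as NuRD to its target genes. It is needed for early B cell development, silences the fetal gamma-globin genes in adult red cells, and is a recurrent target of gains in B cell lymphoma. NF-kB transcription factors drive survival and activation genes in B cells and also induce their own inhibitors, while MHC class II molecules display peptides to helper T cells under the control of the coactivator CIITA.

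The third untreated library has labels that conflict. By title and source name it is the untreated line, but the treatment entry says A-485 for 48 h, and its count file combines 3 sequencing runs. It also stood apart in its counts. Over the 16152 genes that passed a filter on low counts in the 6 libraries, Spearman's rank correlation was 0.997 between untreated replicates 1 and 2. It was 0.977 to 0.983 between those and the clones, and 0.947 to 0.953 between replicate 3 and the other 5 libraries. The summed level of 38 DNA replication and G1/S genes was 6732 to 8223 CPM (counts relative to library size after TMM scaling, the level scale used throughout) in the other 5 libraries and 1866 CPM in replicate 3. What set replicate 3 apart was not tested. Counts over all genes, and those list medians of log2 fold changes that are printed, are therefore given with it and without it, its level stands beside each gene described in full, and log2 fold changes are against replicates 1 and 2, ± SE, unless replicate 3 is named. Counts assigned to genes numbered 29669098, 34904926 and 33530444 in clones 1 to 3 and 21233752 to 37286727 in the untreated libraries, the lowest being replicate 3. The labelled cell type was checked by its markers: 8 B cell markers summed to 4814 to 5646 CPM in the clones and 5298 to 7025 CPM in the untreated libraries. All 20 T and NK cell markers together summed to 18.4, 6.57 and 4.54 CPM in clones 1 to 3 and 11.6, 12.2 and 3.38 CPM in untreated replicates 1 to 3, most of it from CD247, the zeta chain of the T cell receptor complex (17.2, 5.84 and 3.72 CPM against 10.1, 10.7 and 2.08 CPM). The 5 defining ones, CD3D, CD3E, CD3G, CD2 and NKG7, summed to 0.253 to 0.518 CPM in the clones and 0.185 to 0.570 CPM in the untreated libraries, and CD2 was at 0 in all. All 13 myeloid markers summed to 0.274 to 0.608 CPM in the clones and 0.555 to 0.589 CPM in the untreated libraries, with MPO at 0 in all. All 12 epithelial and fibroblast markers summed to 75.0, 42.3 and 29.4 CPM in the clones and 20.8 to 31.1 CPM in the untreated libraries. Most of this came from the matrix proteoglycan DCN, at 65.3, 34.8 and 21.6 CPM against 15.3, 14.1 and 22.8 CPM (1.46 ± 0.49, edgeR adjusted p = 0.209), and from fibronectin, FN1, which was higher in every clone (7.44 to 9.39 CPM) than in any untreated library (6.29 to 6.45 CPM) and was not called (0.37 ± 0.16). The defining markers EPCAM, KRT8, KRT18, COL1A1 and COL1A2 were at 0 in the clones and summed to at most 0.139 CPM in the untreated libraries. The part of these marker levels in the results was not tested.

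BCL11A RNA was not lower in the clones. It stood at 59.0, 68.3 and 53 CPM in clones 1 to 3, against 46.9, 46.2 and 72.2 CPM in untreated replicates 1 to 3. The clones lay above untreated replicates 1 and 2 and, with replicate 3 included, the groups overlapped. Against replicates 1 and 2 the log2 fold change was 0.37 ± 0.12 (SE; edgeR adjusted p = 0.177), and against all 3 untreated libraries it was 0.13 ± 0.21. In bulk RNA a lower level in every cell and loss from some of the cells cannot be told apart. A disrupted gene can still be transcribed, and these gene-level counts do not check the labels. None of the 24 kept genes of its corepressor partners, such as the NuRD helicase CHD4 and the demethylase KDM1A, passed the test in either comparison. The median log2 fold change of those partners was 0.01 without replicate 3 and 0.02 with it. The fetal globin genes are the best known targets of repression by BCL11A in red cells. Here HBG1 had 0 counts in all 6 libraries, and HBG2 had 7 counts over all 6 together.

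The number of genes called depended on replicate 3. Genes kept by a filter on low counts (edgeR's filterByExpr) are called kept or tested here. Changes were tested with the quasi-likelihood test of edgeR and Benjamini-Hochberg adjustment, and a gene is said to have risen or fallen where the adjusted p was under 0.05. Against untreated replicates 1 and 2, 70 of 16607 genes rose and 281 fell, 0.422% and 1.69% of the genes tested. These 351 genes made up 2.11% of those tested, and 32 rose and 183 fell by at least 2-fold. At an unadjusted p under 0.05, 1455 (8.76%) were higher and 1695 (10.2%) lower. Against all 3 untreated libraries, 0 of 16152 genes were called (0%, lowest adjusted p = 0.0904), while 358 genes (2.22%) had an unadjusted p under 0.05 and a higher level and 759 (4.70%) a lower one. In that comparison DESeq2 called 315 genes and limma-voom 2. Of the 351 genes called without replicate 3, 321 were also tested with it; 316 of those had the same sign and 224 had an unadjusted p under 0.05. The calls without replicate 3 also leaned on both remaining untreated libraries, which were the closest pair: leaving out either one left 1 called gene, CAMK4. Leaving out clone 2 gave 1462 rises and 1558 falls, leaving out clone 1 gave 239 and 586, and leaving out clone 3 gave 15 and 77.

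Replicate 3 took no part in choosing those 351 genes. The clones and replicates 1 and 2 did, so the choice alone can shift where replicate 3 lies beside them. Its place is given as a description. Of the 281 genes that fell, 176 (62.6%) had a higher level in replicate 3 than in any clone, against 39.3% of all genes tested. In 65 it lay below every clone and in 40 among them. Of the 70 genes that rose, 45 (64.3%) had a lower level in replicate 3 than in any clone, against 38.7% of all genes tested. Many of these genes were shifted the same way in replicate 3 without reaching the clones. The 281 genes had a median log2 ratio of −0.89 in replicate 3 relative to the mean of replicates 1 and 2, and 129 of them (45.9%) were more than 2-fold lower there, against 15.5% of all genes tested. The 70 genes had a median of 0.67 on the same scale, and 25 (35.7%) were more than 2-fold higher, against 11.4% of all genes tested. The clones, the mean of replicates 1 and 2 and these ratios share libraries, so no test is given.

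**Figure D1:**
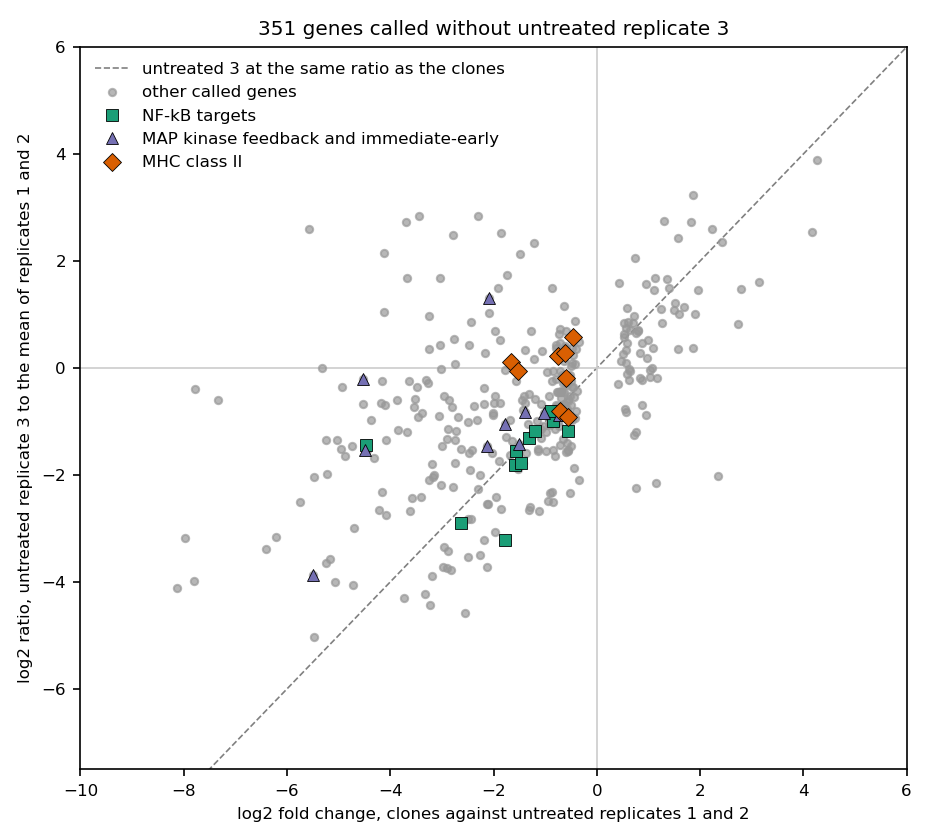
The 351 genes called against untreated replicates 1 and 2: the horizontal axis gives the log2 fold change of the clones, the vertical axis the log2 ratio of untreated replicate 3 to the mean of replicates 1 and 2, with 1 point per gene and 3 gene lists marked. Most NF-kB targets lie near the dashed line, where replicate 3 had the same ratio as the clones, and most MHC class II genes lie near 0 on the vertical axis, where replicate 3 was like replicates 1 and 2.

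Among called genes whose clones all lay below all 3 untreated libraries, the 12 largest falls at 10 CPM or more in the higher group are named here, a rule that leaves out genes of lower level. The rule also puts replicate 3 above all clones in each of them. Of the 12, 11 were lower in replicate 3 than in replicates 1 and 2. CAMK4, a calcium/calmodulin-dependent kinase, stood at 0.203, 0.197 and 0.183 CPM in clones 1 to 3, against 14.3, 14.9 and 1.57 CPM in untreated replicates 1 to 3. Its log2 fold change was −6.21 ± 0.18 (edgeR adjusted p = 0.000346) without replicate 3 and −5.70 ± 0.93 (adjusted p = 0.193) with it. All 3 clones were alike, and replicate 3 lay between them and replicates 1 and 2. NIBAN1, a stress-induced gene, stood at 7.57, 3.29 and 7.35 CPM in the clones, against 75.7, 73.2 and 11.6 CPM in the untreated libraries, a change of −3.62 ± 0.35 without replicate 3 (edgeR adjusted p = 0.0165; −3.14 ± 0.74 with replicate 3). ZYX, which encodes the focal adhesion protein zyxin, had 1.15, 0.927 and 1.25 CPM against 10.8, 10.3 and 2.40 CPM and a change of −3.25 ± 0.19 (edgeR adjusted p = 0.00361; −2.82 ± 0.58 with replicate 3). Both genes again put replicate 3 nearer to the clones than to the other untreated libraries. SRC and FYN, a pair of related tyrosine kinases, changed by −2.90 ± 0.25 and −2.18 ± 0.29, and for both the level in replicate 3 (7.81 and 7.95 CPM) lay between the clones and the other untreated libraries. MTMR2, a phosphoinositide phosphatase, stood at 1.96, 1.66 and 1.89 CPM in the clones, against 13.2, 13.4 and 8.78 CPM in the untreated libraries, and its change of −2.86 ± 0.15 without replicate 3 was −2.68 ± 0.26 with it. PPP1R15A, the stress-induced subunit that directs a phosphatase to the translation factor eIF2, fell by 2.13 on the log2 scale. GABARAPL1, of the autophagy machinery, and PDE9A, which breaks down cyclic GMP, changed by −2.75 ± 0.29 and −3.05 ± 0.49. The last of the 12 were LHFPL2 with −2.47 ± 0.20, and NR4A1 and DUSP5, which are described with the MAP kinase genes.

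**Figure D2:**
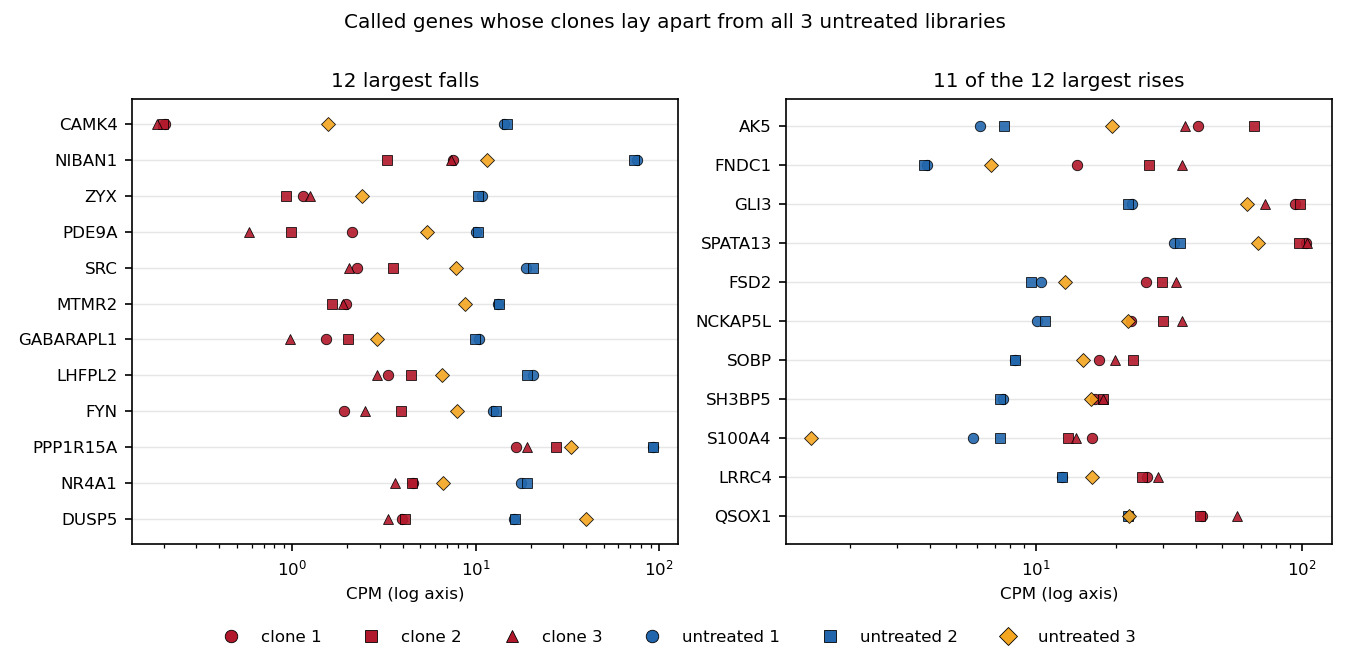
The 12 largest falls (left) and 11 of the 12 largest rises (right) among called genes with 10 CPM or more in the higher group whose clones did not overlap any untreated library: each row is a gene, each point a library, and the horizontal axis is CPM on a log scale. The rule itself puts untreated replicate 3 above all clones in every fall. In 11 of the 12 falls it was also lower than replicates 1 and 2, and DUSP5, at 40.1 CPM in replicate 3, is the exception.

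Rises chosen by the same rule were smaller than the falls. AK5, an adenylate kinase, stood at 40.6, 66.3 and 36.3 CPM in clones 1 to 3, against 6.16, 7.57 and 19.3 CPM in untreated replicates 1 to 3, and rose by 2.80 ± 0.32 on the log2 scale without replicate 3 (edgeR adjusted p = 0.0201; 2.12 ± 0.49 with replicate 3). GLI3, a zinc-finger transcription factor of the Hedgehog pathway, stood at 94.0, 98.3 and 72.9 CPM against 23.1, 22.2 and 62.3 CPM and rose by 1.97 ± 0.15 (edgeR adjusted p = 0.00548; 1.30 ± 0.43 with replicate 3). For both genes the clones were the 3 highest libraries, as the rule requires, and replicate 3 came next. SPATA13, an exchange factor for small GTPases, stood at 104, 97.9 and 105 CPM against 33.0, 34.9 and 68.6 CPM, a rise of 1.59 ± 0.08 (edgeR adjusted p = 0.00299; 1.17 ± 0.29 with replicate 3), with replicate 3 midway. FNDC1, a protein with fibronectin domains, rose by 2.73 ± 0.42, but the clones themselves ranged from 14.3 to 35.5 CPM. SH3BP5, which binds the B cell kinase BTK, rose by 1.24 ± 0.11. In SH3BP5 replicate 3 (16.1 CPM) all but reached the clones (16.8, 17.8 and 18.0 CPM), whereas S100A4, a calcium-binding protein, went the other way: 16.2, 13.2 and 14.1 CPM in the clones, 5.83 and 7.35 CPM in replicates 1 and 2 and 1.43 CPM in replicate 3. Further rises of this group were NCKAP5L with 1.5 ± 0.20, SOBP with 1.27 ± 0.15 and LRRC4 with 1.09 ± 0.11, besides FSD2 and QSOX1.

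Some genes set the clones apart from all 3 untreated libraries alike. Named here are the 6 rises and 6 falls with the smallest p with replicate 3 included, among genes of at least 10 CPM whose groups did not overlap. Overlap was absent for 2661 of 16152 genes, 16.5% of those tested: the clones were all lower for 1374 (8.51%) and all higher for 1287 (7.97%). QSOX1, an enzyme that forms disulfide bonds in secreted proteins, stood at 42.1, 41.5 and 56.8 CPM in the clones, against 22.5, 22.2 and 22.5 CPM in the untreated libraries, with a log2 fold change of 1.06 ± 0.16 over all 6 libraries and 1.07 ± 0.16 without replicate 3. CYBB, the catalytic subunit of the phagocyte NADPH oxidase, stood at 143, 158 and 171 CPM against 78.9, 82.2 and 92.0 CPM and had 0.90 ± 0.12 over all 6. For these 2 genes the untreated libraries were nearly level with each other. PDCD4, an inhibitor of translation, had 1.08 ± 0.15 over all 6 libraries, DENND5B, a regulator of Rab GTPases, 0.88 ± 0.13, COL4A3, a collagen chain of basement membranes, 1.04 ± 0.17, and FSD2 1.44 ± 0.18. None of these 12 reached an adjusted p of 0.05 with replicate 3, and all 12 did without it. Of the falls, LYST, a regulator of lysosome size, stood at 14.7, 16.9 and 13.7 CPM against 46.9, 42.9 and 37.9 CPM with −1.49 ± 0.15, and CHI3L2, a secreted chitinase-like protein, at 6.42, 5.95 and 5.06 CPM against 21.6, 20.9 and 30.6 CPM with −2.07 ± 0.22. The remaining falls were MTMR2 and the antigen presentation genes HLA-DQA1, HLA-DQA2 and HLA-B.

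Many NF-kB target genes fell in the clones against untreated replicates 1 and 2, and in most of those untreated replicate 3 lay among or below the clones. Of 24 kept genes of the 29 in the list, 11 fell and 0 rose, against 1.69% and 0.422% of all genes tested. A negative log2 fold change was seen for 23 of the 24. The list's median was −1.03 without replicate 3, where that of all genes tested was 0.02. With replicate 3 it was −0.82 (−0.01 over all genes), and 11 of 23 genes had an unadjusted p under 0.05 and a lower level, against 4.70% of all genes. Among the inhibitors of the pathway, NFKBIA, which encodes the inhibitor IkBa, stood at 25.4, 28.8 and 27.9 CPM in clones 1 to 3, against 63.9, 62.4 and 27.7 CPM in untreated replicates 1 to 3, a change of −1.20 ± 0.09 without replicate 3 (edgeR adjusted p = 0.00548) and −0.91 ± 0.32 with it. TNFAIP3, the ubiquitin-editing inhibitor A20, stood at 23.0, 22.4 and 18.5 CPM against 63.9, 63.4 and 18.0 CPM and changed by −1.58 ± 0.11 (edgeR adjusted p = 0.00548; −1.19 ± 0.46 with replicate 3). In both genes replicates 1 and 2 were the only high libraries, and replicate 3 lay among or below the clones. Of the survival genes, BIRC3, an inhibitor of apoptosis, stood at 108, 110.0 and 88.3 CPM against 295, 308 and 102 CPM and changed by −1.56 ± 0.11 (edgeR adjusted p = 0.00548; −1.20 ± 0.40 with replicate 3). BCL2A1, a BCL2 family member, stood at 2.94, 2.56 and 3.41 CPM against 17.3, 19.3 and 2.40 CPM and changed by −2.62 ± 0.17 (edgeR adjusted p = 0.00453; −2.13 ± 0.71 with replicate 3). LTA, the cytokine lymphotoxin alpha, stood at 38.5, 35.9 and 36.3 CPM against 90.6, 93.4 and 37.2 CPM and changed by −1.32 ± 0.07 (edgeR adjusted p = 0.00299; −1.0 ± 0.34 with replicate 3). In these 3 genes, too, replicates 1 and 2 were the highest libraries, and replicate 3 lay among or below the clones. The precursor subunits NFKB1 and NFKB2 changed by −0.56 ± 0.07 and −1.47 ± 0.17. The activation marker CD83, the adhesion molecule ICAM1 and the cytokine subunit EBI3 changed by −0.88 ± 0.12, −0.85 ± 0.08 and −1.79 ± 0.31. In 10 of the 11 genes that fell, replicate 3 lay among the clones (4 genes) or below them (6 genes), as it did in 40 and 65 of all 281 genes that fell (14.2% and 23.1%). The exception was the homing receptor CCR7, at 0.0338, 0.169 and 0.0305 CPM in the clones, against 2.12, 1.63 and 0.647 CPM in the untreated libraries. The subunits REL and RELA had −0.02 ± 0.10 and 0.05 ± 0.07 and were not called.

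The promoters of those genes are shown because they hold letters that NF-kB is known to bind. Each sequence is the 250 bases before the RefSeq transcription start (GRCh38.p14), and capitals mark an NF-kB motif on either strand: GGGNN directly followed by TTTCC, or GGAAA directly followed by NNCCC where it lies on the opposite strand.
NFKBIA (chr14:35404750-35404999, minus strand): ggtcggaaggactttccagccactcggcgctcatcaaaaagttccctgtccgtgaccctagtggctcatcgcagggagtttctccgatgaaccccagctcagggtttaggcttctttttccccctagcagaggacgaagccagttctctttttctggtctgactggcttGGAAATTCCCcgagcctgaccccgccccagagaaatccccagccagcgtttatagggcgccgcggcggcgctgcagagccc
TNFAIP3 (chr6:137867009-137867258, plus strand): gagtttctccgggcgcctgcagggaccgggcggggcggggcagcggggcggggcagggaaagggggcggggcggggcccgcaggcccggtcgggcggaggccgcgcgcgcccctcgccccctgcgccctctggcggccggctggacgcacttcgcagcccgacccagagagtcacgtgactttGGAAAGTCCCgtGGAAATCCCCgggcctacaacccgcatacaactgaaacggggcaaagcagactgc
BIRC3 (chr11:102317234-102317483, plus strand): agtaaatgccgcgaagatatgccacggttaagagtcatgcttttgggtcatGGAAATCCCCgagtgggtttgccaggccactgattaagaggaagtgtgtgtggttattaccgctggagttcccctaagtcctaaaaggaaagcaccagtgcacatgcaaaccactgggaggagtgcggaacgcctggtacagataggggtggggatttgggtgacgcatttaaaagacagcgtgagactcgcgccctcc
Over 15 RefSeq promoters of 10 of the 11 NF-kB targets that fell, 6 (40.0%) held the motif on either strand, in BIRC3, NFKB1, NFKB2, NFKBIA and TNFAIP3. It was held by 1.91% of all 35116 promoters of the table, by 2.11% of those of genes tested, by 4.87% of 390 promoters of genes that fell and by 6.25% of 64 promoters of genes that rose. The list was made of known NF-kB targets, and promoters of its genes that did not fall were not compared. The share of 40.0% therefore cannot be tied to the fall. The motif TGACCA, which BCL11A is known to bind at the gamma-globin promoters, was in 10.7% of all promoters, 8.32% of those of genes tested, 9.49% of those of genes that fell and 15.6% of those of genes that rose. It was in 0 of the 15 NF-kB promoters. The shares count matches in a longer stretch than the one shown, which also takes in bases just after the start. A match is a description of these letters and not a bound site.

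Genes induced by MAP kinase signalling, or that restrain it, fell as well. Of 26 kept genes of 30, 10 fell and 0 rose, against 1.69% and 0.422% of all genes tested. The median log2 fold change was −1.46 without replicate 3 (0.02 over all genes). With replicate 3 the median was −1.17 (−0.01 over all genes). There 14 of 25 genes had an unadjusted p under 0.05 and a lower level, against 4.70% of all genes. Replicate 3 was above all clones for 7 of the 10 genes that fell, near the 62.6% of all genes that fell. NR4A3, an immediate-early nuclear receptor, stood at 0.439, 0.449 and 0.305 CPM in clones 1 to 3, against 9.31, 8.85 and 3.10 CPM in untreated replicates 1 to 3, a change of −4.50 ± 0.22 (edgeR adjusted p = 0.00299) without replicate 3 and −4.14 ± 0.52 with it. Its relative NR4A1 stood at 4.56, 4.52 and 3.63 CPM against 17.7, 19.2 and 6.66 CPM and changed by −2.12 ± 0.15 (−1.78 ± 0.41 with replicate 3). In both, replicate 3 lay between the clones and the other untreated libraries. DUSP5, a phosphatase that inactivates ERK, stood at 3.99, 4.10 and 3.32 CPM against 16.2, 16.3 and 40.1 CPM and changed by −2.09 ± 0.15 without replicate 3 (edgeR adjusted p = 0.00548) and by −2.67 ± 0.41 with it. DUSP2, another phosphatase of MAP kinases, stood at 28.9, 24.1 and 28.0 CPM against 67.9, 73.3 and 40.1 CPM and changed by −1.39 ± 0.10 (−1.17 ± 0.24 with replicate 3). For DUSP5 the highest library of all was replicate 3. ETV5, an ETS factor induced by ERK, had 4 counts over the 3 clones and 92 over the untreated libraries. EGR2, a zinc-finger factor of B cell activation, had 3 counts over the clones and 109 over untreated replicates 1 and 2, a level 50.3-fold lower with an exact 95% counting interval of 16.8 to 248. FOSB, DUSP1, DUSP10 and JUNB changed by −1.78 ± 0.27, −1.02 ± 0.17, −1.51 ± 0.20 and −0.74 ± 0.10. EGR1, FOS and EGR3 had −1.88 ± 0.32, −3.87 ± 0.75 and −3.42 ± 0.60 and were not called (edgeR adjusted p = 0.0571, 0.0824 and 0.0524). The ERK phosphatase DUSP6 had 1.49 ± 0.47, the opposite sign, and was not called.

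**Figure D3:**
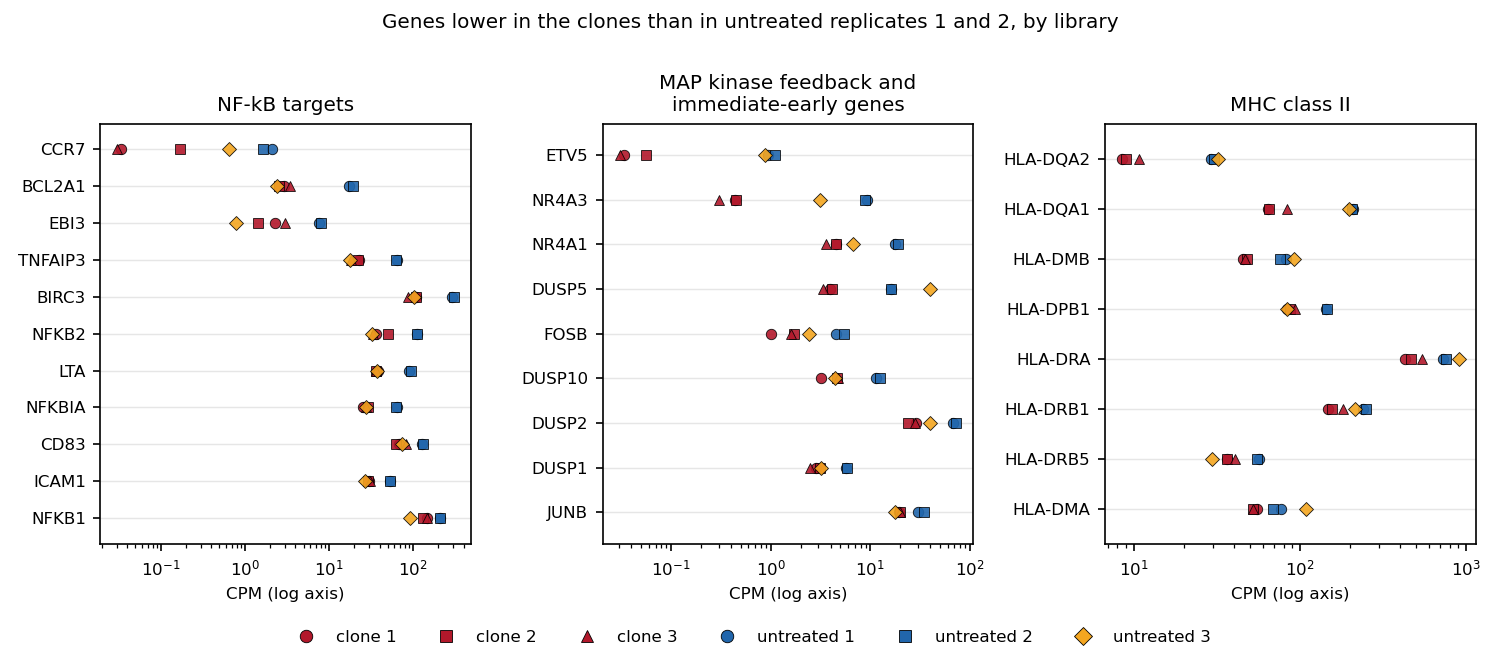
Called members of 3 gene lists by library: each row is a gene, each point a library, and the horizontal axis is CPM on a log scale (EGR2, at 0 in 2 clones, is not drawn). Untreated replicate 3 lies among or below the clones in 10 of 11 NF-kB targets, and above all clones in 6 of 8 MHC class II genes; over all 281 genes that fell it lies above all clones in 62.6%.

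Several MHC class II genes fell against untreated replicates 1 and 2. Of the 8 that fell, 6 were also lower in every clone than in replicate 3, as were 176 of all 281 genes that fell (62.6%). All 22 genes of the list were kept. Of these, 8 fell and 0 rose, against 1.69% and 0.422% of all genes tested. The median log2 fold change was −0.39 without replicate 3 and −0.43 with it (0.02 and −0.01 over all genes). With replicate 3, 10 of the 22 had an unadjusted p under 0.05 and a lower level, against 4.70% of all genes. HLA-DQA1, the alpha chain of HLA-DQ, stood at 64.6, 65.0 and 84.4 CPM in clones 1 to 3, against 208, 206 and 199 CPM in untreated replicates 1 to 3, a change of −1.53 ± 0.13 without replicate 3 (edgeR adjusted p = 0.00802). HLA-DQA2, a close paralog that may share reads with it, stood at 8.51, 8.96 and 10.7 CPM against 29.4, 30.6 and 32.2 CPM and changed by −1.67 ± 0.13 (−1.71 ± 0.16 with replicate 3). In both genes the 3 untreated libraries were level with one another. HLA-DRA, the alpha chain of HLA-DR, stood at 432, 466 and 547 CPM against 728, 759 and 905 CPM and changed by −0.62 ± 0.11 without replicate 3 (edgeR adjusted p = 0.0492; −0.73 ± 0.14 with replicate 3). The beta chain gene HLA-DRB1 stood at 149, 157 and 182 CPM against 239.9, 251 and 215 CPM and changed by −0.59 ± 0.10 (−0.53 ± 0.13 with replicate 3). Of the peptide-loading genes, HLA-DMB stood at 45.7, 48.3 and 46.9 CPM against 82.4, 75.6 and 92.5 CPM, a change of −0.75 ± 0.07 (−0.83 ± 0.12 with replicate 3). Its partner HLA-DMA changed by −0.46 ± 0.08 (−0.68 ± 0.19 with replicate 3). In these 4 genes, too, all 3 clones were below all 3 untreated libraries. HLA-DPB1 and HLA-DRB5 changed by −0.72 ± 0.07 and −0.56 ± 0.08, with replicate 3 at 83.8 and 29.7 CPM, among the clones and below them. HLA-DQB1, HLA-DQB2 and HLA-DPA1 had −0.89 ± 0.22, −1.01 ± 0.26 and −0.40 ± 0.08 and were not called.

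The regulators and the chaperone of the class II genes were not called. CIITA, the coactivator, stood at 56.1, 68.9 and 72.1 CPM in the clones, against 86.6, 83.8 and 115 CPM in the untreated libraries; its log2 fold change was −0.37 ± 0.12 without replicate 3 (edgeR adjusted p = 0.173) and −0.53 ± 0.17 with it. The clones lay below all 3 untreated libraries. CD74, the invariant chain, which CIITA also controls, had 0.10 ± 0.12, with overlapping groups. The promoter-binding factors RFX5, RFXAP and RFXANK had −0.28 ± 0.09, −0.06 ± 0.09 and 0.10 ± 0.08, and NFYA, NFYB and NFYC 0.06 ± 0.08, 0.01 ± 0.09 and −0.04 ± 0.08. The protease CTSS, which trims the invariant chain, had −0.25 ± 0.09, and HLA-DOA and HLA-DOB, which restrain peptide loading, had −0.35 ± 0.11 and 0.19 ± 0.14.

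Class II promoters carry a Y box, whose core is the CCAAT box bound by NFY. Of these promoters 3 are shown with CCAAT in capitals on either strand (ATTGG on the opposite one), again as the 250 bases before the RefSeq start in GRCh38.p14. Capitals mark these letters wherever they lie, and which of them belong to a Y box was not tested. The matches begin 222 and 68 bases before the start in HLA-DQA1, 22 in HLA-DMB, and 195 and 46 in HLA-DRB1.
HLA-DQA1 (chr6:32637156-32637405, plus strand): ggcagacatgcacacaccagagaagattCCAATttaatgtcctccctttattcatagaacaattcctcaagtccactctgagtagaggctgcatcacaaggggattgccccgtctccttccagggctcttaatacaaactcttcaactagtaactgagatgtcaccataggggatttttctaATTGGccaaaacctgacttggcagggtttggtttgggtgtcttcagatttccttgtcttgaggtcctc
HLA-DMB (chr6:32941029-32941278, minus strand): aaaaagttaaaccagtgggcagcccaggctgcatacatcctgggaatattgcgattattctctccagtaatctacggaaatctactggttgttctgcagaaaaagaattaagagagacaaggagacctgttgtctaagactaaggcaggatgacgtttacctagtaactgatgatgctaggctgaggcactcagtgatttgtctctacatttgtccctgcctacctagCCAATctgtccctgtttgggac
HLA-DRB1 (chr6:32589849-32590098, minus strand): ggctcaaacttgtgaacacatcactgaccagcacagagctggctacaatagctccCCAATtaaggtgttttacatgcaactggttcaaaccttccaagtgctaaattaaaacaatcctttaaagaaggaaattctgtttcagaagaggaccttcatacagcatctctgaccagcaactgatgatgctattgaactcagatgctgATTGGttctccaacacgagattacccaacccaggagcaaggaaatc
All 7 promoters found for class II genes that fell held CCAAT, which 34.6% of all promoters and 35.0% of those of genes tested held. Of promoters of genes that fell 28.2% held CCAAT, and of those of genes that rose 18.8%. TGACCA, which can share the letters CCA with it, was in 3 of the 7, those of HLA-DMA, HLA-DRB1 and HLA-DRB5. The NF-kB motif was in 0 of the 7. Promoters of class II list genes that did not fall were not compared. These shares, too, take in bases just after the start, which are not shown.

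Some genes of the contact between B and T cells fell. Of 28 kept genes of 31 for costimulation and adhesion, 8 fell and 1 rose, against 1.69% and 0.422% of all genes tested. Their median log2 fold change was −0.55 without replicate 3 and −0.61 with it (0.02 and −0.01 over all genes). CD80, a ligand of CD28, stood at 1.22, 0.730 and 0.579 CPM in the clones, against 10.7, 11.6 and 0.509 CPM in the untreated libraries, a change of −3.73 ± 0.31 without replicate 3 (edgeR adjusted p = 0.00774; −3.18 ± 1.02 with replicate 3). CD58, the ligand of CD2, stood at 2.94, 1.60 and 1.58 CPM against 14.6, 15.4 and 1.34 CPM and changed by −2.88 ± 0.29 (edgeR adjusted p = 0.0140; −2.36 ± 0.84 with replicate 3). In both genes replicate 3 was the lowest library. CD274, which encodes the checkpoint ligand PD-L1, stood at 0.135, 0.225 and 0.183 CPM against 1.94, 2.41 and 1.29 CPM and changed by −3.55 ± 0.29 (edgeR adjusted p = 0.00783; −3.35 ± 0.39 with replicate 3), with replicate 3 above the clones. ICOSLG, the ligand of ICOS, stood at 21.0, 26.9 and 27.3 CPM against 46.0, 45.4 and 129 CPM and changed by −0.86 ± 0.13 (−1.55 ± 0.44 with replicate 3), with its highest level in replicate 3. The death receptor FAS stood at 2.43, 2.25 and 1.07 CPM against 18.5, 20.1 and 0.971 CPM and changed by −3.33 ± 0.33 (−2.78 ± 0.99 with replicate 3), with replicate 3 below the clones. ICAM1 and CD83, described with the NF-kB targets, fell too. The gene that rose was LGALS9, the lectin galectin-9, at 8.82, 11.5 and 10.8 CPM against 2.44, 1.44 and 10.2 CPM with 2.42 ± 0.28; replicate 3 lay among the clones. HLA-B, of MHC class I, was the only 1 of 19 kept class I genes called: it stood at 29.2, 25.7 and 34.3 CPM against 68.3, 69.9 and 77.6 CPM and changed by −1.21 ± 0.13 without replicate 3 and by −1.27 ± 0.15 with it. HLA-C had −0.28 ± 0.08 and was not called.

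Receptors that guide B cells in lymphoid tissue fell in part. Of 21 kept genes of 27 trafficking receptors and G protein regulators, 5 fell and 0 rose: CXCR4, CXCR5, CCR7, GPR183 and RGS2. Over all genes tested 1.69% fell and 0.422% rose. The list's median log2 fold change was −0.24 without replicate 3 and −0.39 with it (0.02 and −0.01 over all genes). CXCR4, the receptor that draws B cells to the dark zone of germinal centres, stood at 53.6, 60 and 40.3 CPM in the clones, against 136, 139 and 79.7 CPM in the untreated libraries, a change of −1.42 ± 0.16 without replicate 3 (edgeR adjusted p = 0.0184) and −1.21 ± 0.26 with it. The follicle-homing receptor CXCR5 stood at 0.135, 0.0843 and 0.0305 CPM against 1.35, 0.841 and 3.65 CPM and changed by −3.68 ± 0.50. Both had all clones below all untreated libraries. GPR183, the oxysterol receptor EBI2, and RGS2, a brake on G protein signalling, changed by −2.96 ± 0.35 and −1.09 ± 0.14, and for both replicate 3 lay among the clones. RGS1 stood at 0.338, 3.45 and 0.274 CPM in the clones, against 40.8, 39.9 and 3.14 CPM in the untreated libraries, and was not called (−4.85 ± 1.06, edgeR adjusted p = 0.121); clone 2 and replicate 3 were close to each other.

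B cell identity genes, such as PAX5, gave no called gene among 23, and their median log2 fold change was 0.02 without replicate 3 and, with the opposite sign, −0.14 with it. Among the genes linked to differentiation, IRF4, a factor of plasma cell fate and an NF-kB target, stood at 0.541, 0.281 and 0.914 CPM in the clones, against 6.30, 6.05 and 1.11 CPM in the untreated libraries, a change of −3.41 ± 0.42 without replicate 3 (edgeR adjusted p = 0.0201; −2.96 ± 0.76 with replicate 3). SLAMF7, a surface receptor of plasma cells, stood at 0.338, 0.590 and 0.183 CPM against 3.62, 2.60 and 4.21 CPM and changed by −3.04 ± 0.43. Both had all clones below all untreated libraries, although for IRF4 replicate 3 was near clone 3. They were the 2 that fell of 11 kept plasma cell genes, of which 0 rose. The list's median log2 fold change was 0.03 without replicate 3 and −0.50 with it. Without replicate 3, 5 of the 11 had a negative log2 fold change. At an unadjusted p under 0.05, 3 were higher and 4 lower, against 8.76% and 10.2% of all genes. MZB1 of that list had 0.42 ± 0.09 and was not called. PRDM1, the master regulator of plasma cells, had 3 counts over the clones and was not tested. The germinal centre regulator BCL6 had −0.29 ± 0.12 and BCL2 −0.49 ± 0.22, and neither was called. Of 12 kept lymphoid genes linked to BCL11A by knockout studies, TCF7 and the survival gene BCL2L1 fell by 1.53 and 0.63 on the log2 scale, and in both replicate 3 lay below the clones. MDM2 and MDM4 of that list had −0.18 ± 0.08 and −0.21 ± 0.14 and were not called. B cell receptor signalling was the only list with more than 1 rise. Of its 26 kept genes, SYK, the kinase that starts the cascade, and SH3BP5 rose and 0 fell. Over all genes tested 0.422% rose and 1.69% fell. SYK stood at 258, 259 and 269.7 CPM against 163, 161 and 289 CPM, with 0.70 ± 0.06 without replicate 3 (edgeR adjusted p = 0.00938; 0.36 ± 0.24 with replicate 3), and its highest library was replicate 3.

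Calls in the metabolic and stress lists are to be read beside the 1.69% of all genes tested that fell. Of 25 kept genes of the amino acid response controlled by ATF4, 3 fell, and 24 had a negative log2 fold change (median −0.65 without replicate 3 and −0.39 with it). Without replicate 3, 19 of the 25 were lower at an unadjusted p under 0.05, against 10.2% of all genes. With replicate 3, 3 were, against 4.70% of all genes. ASNS, asparagine synthetase, stood at 189, 232 and 195 CPM in the clones, against 323, 330.1 and 268 CPM in the untreated libraries, and changed by −0.66 ± 0.10. PSAT1 and MTHFD2, enzymes of serine synthesis and one-carbon metabolism, changed by −0.85 ± 0.09 and −0.65 ± 0.07, and both were lowest in replicate 3 (47.4 and 168 CPM). Of 32 kept cholesterol and lipid synthesis genes, 2 fell and 0 rose. FADS1, a fatty acid desaturase, fell by 0.61 on the log2 scale, with all 3 clones below all 3 untreated libraries. Of the interferon list IFIH1, a sensor of viral RNA, was the called gene of 26 kept, at 0.203, 0.337 and 0.122 CPM against 5.83, 6.05 and 0.694 CPM with −4.71 ± 0.35. ADM, a peptide hormone gene induced by hypoxia, had 0 counts over the clones and 73 over replicates 1 and 2, a level at least 33.7-fold lower against a floor of 3 counts over the clones; it was also listed at 0 in replicate 3. HERPUD1, of protein quality control in the endoplasmic reticulum, and the Polycomb gene PCGF5 changed by −0.79 ± 0.11 and −0.57 ± 0.09. PIM1, a kinase of lymphoma, stood at 3.41, 3.88 and 2.35 CPM against 12.6, 12.5 and 1.43 CPM and changed by −1.96 ± 0.22, and its relative PIM3 by −0.59 ± 0.09.

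No gene of the proliferation lists was called. None of 38 kept DNA replication genes and none of 30 kept G2/M genes was called, with medians of 0.01 and −0.17 without replicate 3. Of the G2/M genes 28 of 30 had a negative log2 fold change, and 11 were lower at an unadjusted p under 0.05, which was so for 10.2% of all genes; of the DNA replication genes 7 were lower and 2 higher at that p. With replicate 3 these medians were 0.45 and 0.12; 37 of the 38 and 19 of the 30 were more than 2-fold lower in replicate 3 than in the other untreated libraries. MYC stood at 336, 261 and 330.1 CPM in the clones, against 278, 296 and 404 CPM in the untreated libraries, and was not called (0.11 ± 0.12). None of 26 kept MYC targets was called, although their median ratio to replicates 1 and 2 was 0.42 in clone 1, −0.17 in clone 2 and 0.48 in clone 3. EP300, CREBBP and EZH2, which encode histone-modifying enzymes, had −0.03 ± 0.06, 0.25 ± 0.09 and −0.09 ± 0.06 and were not called. None of 27 kept histone acetylation genes and none of the 16 kept genes in the list of BCL11A and its neighbours on the short arm of chromosome 2 was called.

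**Figure D4:**
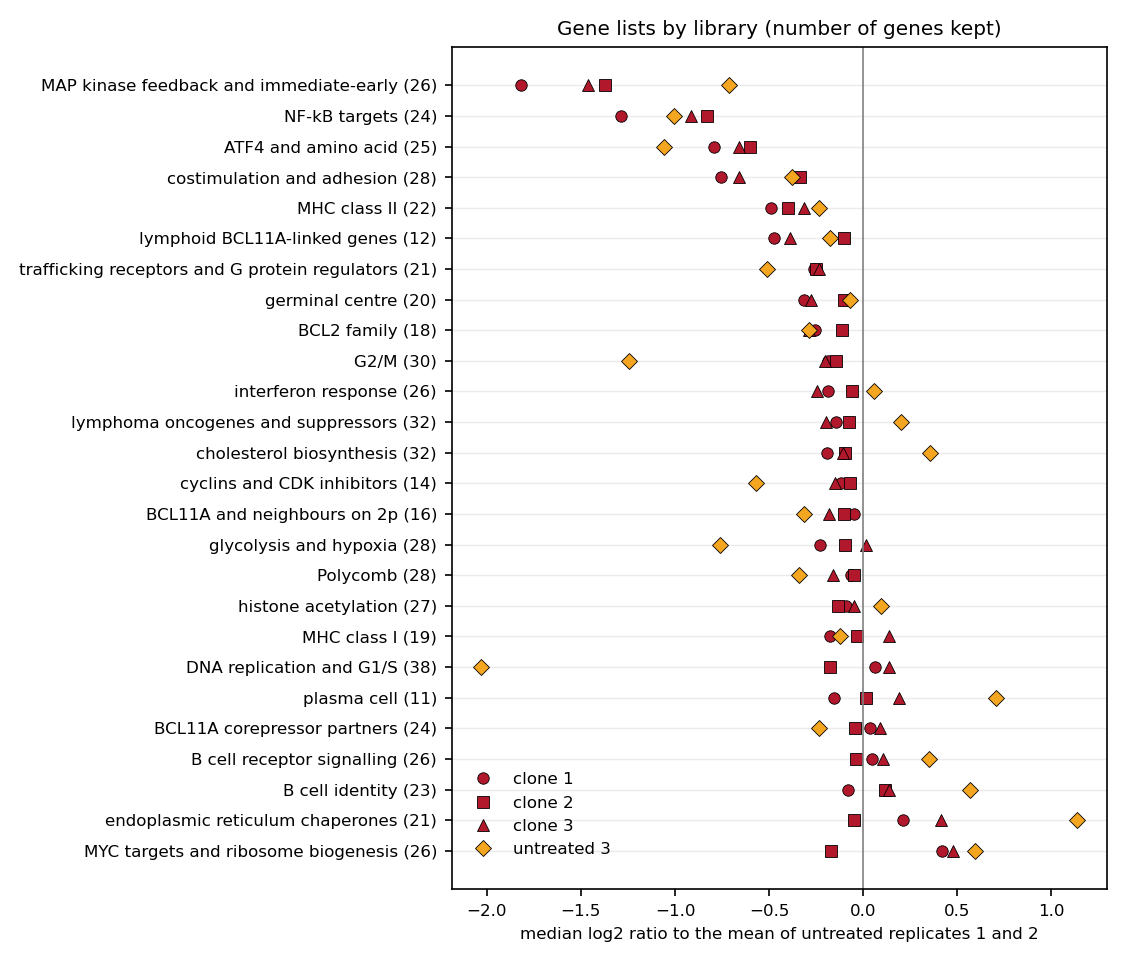
Median log2 ratio of gene lists with at least 10 kept genes to the mean of untreated replicates 1 and 2, with 1 point for each clone and 1 for untreated replicate 3. The clones lie lowest for the MAP kinase and NF-kB lists, at −1.82 to −1.37 and −1.28 to −0.83, and untreated replicate 3 lies lowest for DNA replication, at −2.03.

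The clones also differed from one another, which is described without a test because each is 1 library. Relative to the mean of untreated replicates 1 and 2, 999 genes were more than 2-fold lower in clone 1, 818 in clone 2 and 1277 in clone 3, and 348 (2.10%) were so in all 3. The counts for higher genes were 309, 367 and 353, with 60 (0.361%) in all 3. A 2-fold lower level in 1 clone alone was seen for 387, 142 and 403 genes in clones 1 to 3. In replicate 3 the same cut held 2567 lower and 1898 higher genes, and 187 of the 348 lower and 40 of the 60 higher genes were also past 2-fold there.

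Some genes were high in 1 clone and nearly absent from another. Of 7309 protein-coding genes that reached 20 CPM in the highest clone, 21 differed at least 16-fold between clones, and the highest clone was clone 1 for 17 of them, clone 2 for 3 and clone 3 for 1. In 20 of the 21 the mean of replicates 1 and 2 lay between the lowest and the highest clone, against 46.0% of the 7309 genes, although a wider range takes in more values by its construction. NELL2, a secreted glycoprotein, stood at 64.1, 0.0843 and 0.640 CPM in clones 1 to 3, against 29.4, 29.9 and 6.93 CPM in untreated replicates 1 to 3, and LIPG, endothelial lipase, at 29.5, 0.112 and 0 CPM against 21.6, 21.5 and 29.6 CPM. In these genes clone 1 was like or above the untreated line, and clones 2 and 3 had almost no reads. ZMAT1, POF1B, DZIP1 and CPNE7 had the same order, with 35.0, 30.2, 22 and 20.4 CPM in clone 1 and less than 1 CPM in clones 2 and 3. CTAG2, a cancer-testis antigen, was high in clone 2 alone: it stood at 0, 32.2 and 0 CPM in the clones, against 0.501, 0.760 and 1.02 CPM in the untreated libraries.

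**Figure D5:**
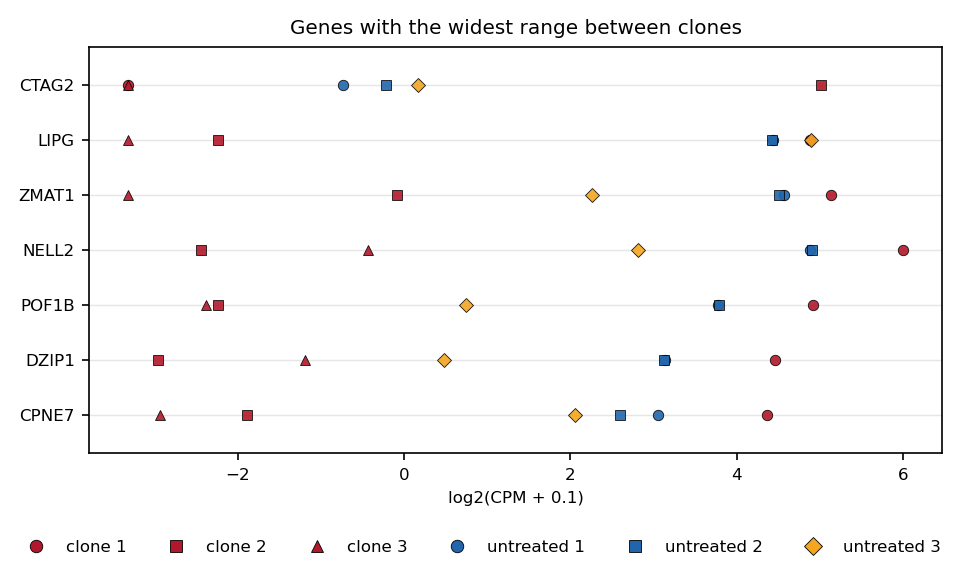
Genes with the widest range between clones, 7 of 8: each row is a gene, each point a library, and the horizontal axis is log2 of CPM plus 0.1. In 6 of the 7 genes clone 1 is high while clones 2 and 3 are near the left edge, and in CTAG2 clone 2 alone is high.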

How the data were processed

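Total RNA libraries were compared by read counts per gene, which the authors deposited as raw whole-number counts, 1 file per library. Per the submitters' processing notes, STAR 2.5.3a, RSEM and the build GRCh37 (hg19) were used; annotation, counting program and strand were not stated in the sources used. Reads of overlapping, antisense or paralogous genes (HLA) may therefore be shared. Summary lines, which held 27.3% to 29.7% of reads, were dropped. Of 63677 genes, 52526 had a symbol, and those without held 0.673% of counts. Groups follow titles and source names. The 3 runs of untreated replicate 3 share 1 file and were used as 1 library. Untreated replicates 1 and 2 were the closest pair (chi-square per gene 2.66) and were kept as 2 libraries.

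The clones were compared with all 3 untreated libraries and with replicates 1 and 2 in edgeR 4.0.16 (R 4.3.3): TMM scaling, filterByExpr, robust quasi-likelihood fits, two-sided tests, Benjamini-Hochberg adjustment over all genes kept, threshold 0.05. The SE was taken as the log2 fold change over the root of F. CPM are TMM-scaled over the 6 libraries; ratios per library add a prior count of 2. On simulated counts with 100 genes changed 4-fold, the test called 52 with all 3 untreated libraries and 81 with replicates 1 and 2. Of 100 changed 2-fold it called 15 and 36, with 1 and 7 false calls in all. The simulation let both groups vary alike. In the data the chi-square per gene was 2.66 between replicates 1 and 2 and 20.3 to 40.9 between clones. The simulated numbers therefore do not measure recovery or false calls in these data. DESeq2 1.42.0 and limma-voom (limma 3.58.1) served as alternatives. Counts are of reads, so the interval and floor given cover counting error only.

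The members and the 34 gene lists (793 of 808 entries matched) were chosen with earlier results of these data known. Named genes are 9 fixed genes, the 12 largest rises and falls without replicate 3, the 6 with the smallest p in each direction with it, 3 per list, all kept MHC class II genes and 8 genes that differ between clones. Further list members are named because they were called, or as relatives of called genes, after their values were seen. Promoters are from RefSeq (GRCh38.p14); 230 of the 281 genes that fell and 50 of the 70 that rose matched. A few genes that these rules name are not reported here.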

Additional observations from a re-analysis of the deposited data

How the results depend on the processing

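Against all 3 untreated libraries edgeR called 0 genes in either direction under other scalings, a stricter filter and the replicate block, and with any single clone or untreated replicate 1 or 2 left out. The exceptions were DESeq2 (60 higher, 255 lower), limma-voom (0 and 2), no filter beyond 1 count (1 and 19), and leaving out untreated replicate 3, so that leaving out 1 library gave 0 to 70 higher and 0 to 281 lower genes. Against replicates 1 and 2, where 70 rose and 281 fell, DESeq2 called 405 and 748 (35.1% higher, against 19.9%) and no filter 222 and 613. Leaving out 1 library gave 0 to 1462 higher and 1 to 1558 lower genes, the lowest without untreated replicate 1 or 2, where the lone untreated library is assumed to vary like the clones, and the highest without clone 2 (48.4% higher). No label says that the same numbers in both groups name a shared culture. Deviations of same-numbered libraries correlated at 0.10, 0.03 and 0.23, and those of differently numbered ones at −0.23 to 0.12. With so few libraries these values cannot settle whether a culture was shared. The replicate block left 16 higher and 73 lower genes, of which 77 in all were among the 351. Genes past the fold in all 3 clones numbered 256 higher and 658 lower at 1.5-fold and 6 and 119 at 4-fold. On the plus strand alone TGACCA was in 5.64% and CCAAT in 16.9% of promoters of genes that fell. A turn of direction was counted only where the gene was called in the main fit or under the other setting. Among named genes and list members, the value that turned in this sense was CTAG2 against replicates 1 and 2, with −7.41 without clone 2 and 4.67 without clone 1. Changes of sign in genes called in neither were not counted, so the directions of uncalled genes may be less stable. Causes were not tested beyond the smaller number of libraries or genes that these settings leave. The NF-kB motif and the windows of neighbouring genes were added after seeing the data. Depth limits genes at a few counts, such as ADM, EGR2, ETV5 and PRDM1.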

Other observations

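Neighbouring genes sometimes differed together between clones. Kept genes were taken in windows of 50 neighbours along each chromosome (gene order from the GENCODE annotation), 1417 overlapping windows in all, and the median log2 ratio to the mean of untreated replicates 1 and 2 was computed per clone. The range between clones had a median of 0.08 over the windows, and 95% of them lay under 0.20. The widest range was at the end of the long arm of chromosome 19, from AURKC to A1BG, where zinc-finger genes lie clustered: the medians were −0.33, 0.24 and 0.36 in clones 1 to 3 and 0.82 in untreated replicate 3. On chromosome 2, from C2orf69 to METTL21A, they were 0.24, −0.39 and −0.40, and 36 and 39 of the 50 genes were lower in clones 2 and 3 than in clone 1. On chromosome 18, from RSL24D1P11 to RBFADN, they were −0.32, 0.23 and 0.27. The median over a whole chromosome lay between −0.09 and 0.09 in every clone.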
